A study of Mus musculus with 76 samples.

Results

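The endothelial genes are 34 named mouse genes that mark or serve the cells lining blood and lymph vessels. They were chosen by symbol, with the probe set of the highest mean standing for each gene. All 34 were found among the 18194 genes on the arrays, and all 34 passed the filter on low values, which left 13868 genes for testing. The lowest value of any of them in any array was Lyve1 at 3.59, against 3.03 for control probe sets that have no mouse target, so every gene was above that level in every array.

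The data are 76 Affymetrix arrays of whole tumours, 1 tumour RNA each, from the C57BL/6 strain. The tumours come from a directed complementation model, in which a tumour driven by doxycycline-inducible HER2(V659E) loses that driver on doxycycline withdrawal and is then given 1 of 13 genes. The groups are named by the introduced gene: ErbB3, FGFR2aIIIb, FGFR2aIIIc, FGFR3, HER2, RONd160 and RON+MSP (receptor tyrosine kinases, the last with its ligand), FAK1, TNK2 and RSK2 (intracellular kinases), PIP5K1B (a lipid kinase), and MAP3K7 and MAP3K11 (kinases upstream of MAP kinases). FAK1 has 4 arrays and each of the other 12 groups has 6. All groups share the withdrawn driver, and in the HER2 group the introduced gene was HER2 itself. The 6 MAP3K11 arrays are labelled with cachexia and the other 70 without. A further label, T1, T2 or T3, is not defined, and the sources used here name no ages.

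The arrays of a group were sorted into 38 pairs by likeness of their autosome medians, with a median correlation of expression of 0.771 within pairs. Arrays of a group that were not paired correlated at a median of 0.271. The pairs were chosen from these same data, so part of that gap comes from the choice. Some pairs were weak, with an expression correlation of 0.357 in an FGFR2aIIIc pair and an autosome correlation of 0.474 in a MAP3K11 pair. All 38 pairs joined arrays with different T labels. The titles call each array a biological replicate of its group and T label. Titles and labels do not say whether a pair shares an animal or a tumour line. A group of 6 arrays was therefore treated as 3 correlated pairs. The p-values and standard errors rest on a spread per gene pooled over the 13 groups, with 1 correlation for all pairs. They do not measure the spread of the pairs of 1 group. The fit had 61 residual degrees of freedom, which count arrays and not the 38 pairs. The pooled spread may be partly technical. Array medians lay between 5.45 and 5.56 on the log2 scale, in which all levels below are given. A FAK1 pair (T1 replicate 2 and T3 replicate 1) and a MAP3K7 pair (T1 replicate 1 and T2 replicate 1) stood apart in these genes. Centred on all arrays, the mean of the 34 genes was -1.16 in that FAK1 pair and 0.16 in the other FAK1 pair. It was 0.74 in that MAP3K7 pair and -0.37 and -0.04 in the other two.

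Endothelial cells line every vessel and bring blood to a growing tumour. They are held together by junction proteins such as VE-cadherin (Cdh5), take growth signals through VEGF receptors (Kdr, Flt1, Flt4) and Tie receptors (Tek, Tie1), and are specified by ETS factors (Erg, Fli1) and SOX factors (Sox7, Sox17, Sox18). In whole tumour RNA, fewer cells of a type and less RNA per cell cannot be told apart.

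Promoters were read for genes at both ends of the correlation with Cdh5 described further down, because ETS and SOX factors are themselves among the 34 genes. The windows of 300 bases span a start site, mostly upstream of it, and are from RefSeq on GRCm38.p6, whose table held 16 of the 34 genes. Tie1 and Egfl7 varied most like Cdh5 among those found, and Apln varied least like it. Capitals mark the ETS-type letters AGGAAG or their reverse complement CTTCCT. The Tie1 window is chr4:118489800-118490099 on the minus strand, the Egfl7 window is the first of its 3 listed starts, chr2:26580833-26581132 on the plus strand, and the Apln window is chrX:48034804-48035103 on the minus strand.
Tie1: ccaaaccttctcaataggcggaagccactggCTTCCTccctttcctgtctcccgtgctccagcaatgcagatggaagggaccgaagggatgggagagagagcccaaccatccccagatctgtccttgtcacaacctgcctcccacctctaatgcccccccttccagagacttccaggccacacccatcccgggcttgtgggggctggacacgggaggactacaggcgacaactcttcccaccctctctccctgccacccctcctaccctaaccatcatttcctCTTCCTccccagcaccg
Egfl7: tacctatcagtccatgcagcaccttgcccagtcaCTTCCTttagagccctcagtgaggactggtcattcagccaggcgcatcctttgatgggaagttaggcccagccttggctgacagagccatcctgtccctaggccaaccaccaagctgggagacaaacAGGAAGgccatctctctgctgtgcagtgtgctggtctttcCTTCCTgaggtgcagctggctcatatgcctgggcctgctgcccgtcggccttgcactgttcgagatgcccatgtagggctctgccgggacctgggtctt
Apln: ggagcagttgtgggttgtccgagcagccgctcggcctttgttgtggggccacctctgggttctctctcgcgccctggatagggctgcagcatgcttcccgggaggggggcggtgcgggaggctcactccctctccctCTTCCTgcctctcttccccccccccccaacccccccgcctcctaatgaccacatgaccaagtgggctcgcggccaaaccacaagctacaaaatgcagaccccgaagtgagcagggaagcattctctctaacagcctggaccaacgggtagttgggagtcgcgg

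The letters AGGAAG occurred 2 times in the Tie1 window, 3 times in the Egfl7 window and 1 time in the Apln window, counting both strands. The later Egfl7 starts, not printed, held 2 and 0. Other windows did not all follow the order of these 3: Kdr, at 0.94 with Cdh5, held 0 and Flt1, at 0.304, held 2. Whether the letters go with the correlation with Cdh5 was not tested. Among the 16 genes with a promoter in the table, 10 held AGGAAG in some window (62.5%), against 38.4% of the 27025 genes in the table and 37.8% of the 11111 of them that were tested. Counted per window, the shares were 55% of 20 windows and 35.4% of 32851 windows. The SOX-type letters AACAAT, searched on both strands, were in 3 of the 16 genes (18.8%) in 12.2% of all genes and in 7.6% of the tested genes, and in none of the 3 windows printed. The letters of one motif cannot overlap those of the other on either strand, and a match is a description of letters, not of a bound site.

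The 34 genes tended to be high or low in the same groups. RSK2 tumours had the highest group mean in 26 of the 34 genes, MAP3K11 in 4, MAP3K7 in 2 and FGFR3 and PIP5K1B in 1 each. The lowest group mean was in FAK1 for 19 genes, in HER2 for 5, in FGFR2aIIIb for 4 and in PIP5K1B for 3, with 1 gene each in ErbB3, RONd160 and MAP3K11. By limma's F test over the 13 groups, 24 of the 34 genes differed at an adjusted p under 0.05, against 54% of all genes tested. The 10 that did not pass were Pecam1, Flt4, Emcn, Vwf, Fli1, Sox17, Esm1, Cldn5, Gpihbp1 and Lyve1. The T labels separated none of the 34 genes by limma's F test, with 0 at an unadjusted p under 0.05. They separated 0% of all genes after adjustment, with 1130 genes at an unadjusted p under 0.05.

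**Figure D1:**
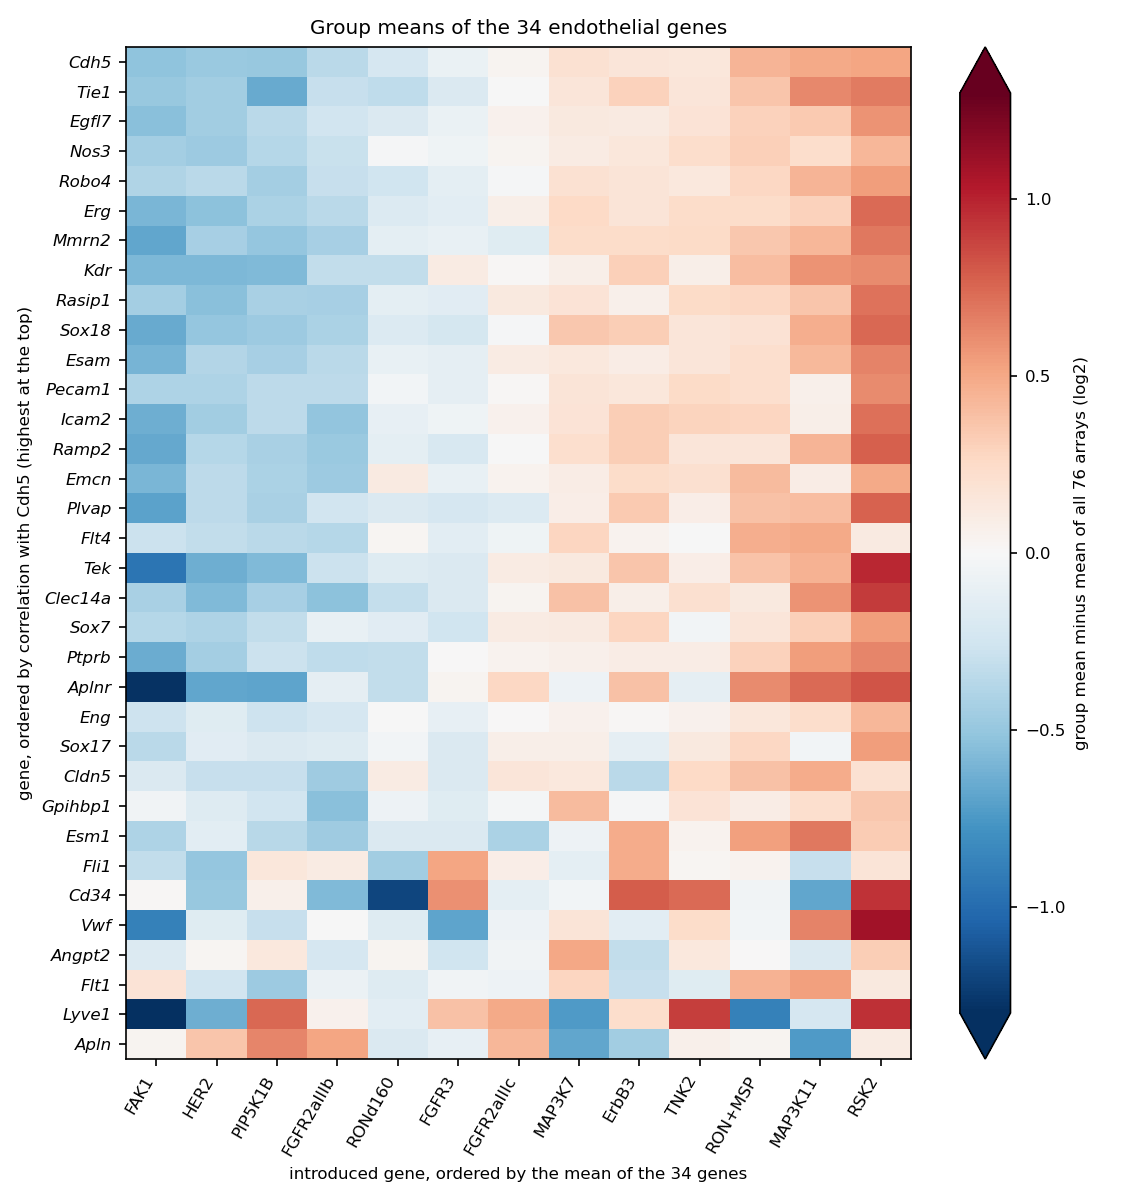
Group means of the 34 genes (rows, ordered by their correlation with Cdh5) in the 13 groups (columns, ordered by the mean of the 34 genes), each minus the gene's mean over 76 arrays, on the log2 scale. Most rows turn from blue on the left (FAK1, HER2, PIP5K1B) to red on the right (MAP3K11, RSK2), and Apln at the bottom is lowest in MAP3K11.

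Endothelial genes were higher in tumours with RSK2, a kinase downstream of ERK. Against the mean of the other 12 groups, 15 of the 34 genes rose and 0 fell by limma with the pairs as a random block and Benjamini-Hochberg adjustment, while 1.49% of all genes tested rose. The median difference was 0.68 over the 34 genes and -0.02 over all genes tested. The genes that rose cover receptors, junction and surface proteins and transcription factors. The 19 genes that did not pass had differences from 0.12 to 1.21, all of positive sign.

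Tek encodes the angiopoietin receptor Tie2. It ranged from 6.45 through a median of 6.71 to 7.49 in the 6 RSK2 arrays, and from 4.20 to 7.20 in the other 70. The RSK2 arrays were high, though 10 of the other 70 arrays lay above the lowest of them. The fitted difference was 1.07 ± 0.29 (SE of the pooled fit, with 3 pairs of RSK2 arrays), a 2.1-fold rise, with an adjusted p of 0.0275 by limma.

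Plvap forms the diaphragms of endothelial pores and small vesicles. Its RSK2 arrays lay at 9.72, 9.92 and 10.08 (lowest, median and highest), against 9.04 for the mean of the other groups. Only 5 of the other 70 arrays lay above the lowest RSK2 array. The difference was 0.84 ± 0.19 (SE), with an adjusted p of 0.00931 by limma.

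Ramp2, which turns the calcitonin receptor-like receptor into a receptor for adrenomedullin, had RSK2 values of 8.25, 8.45 and 8.58 (lowest, median and highest). The lowest was passed by 7 of the other 70 arrays, and the difference was 0.85 ± 0.19 (SE, adjusted p = 0.0107 by limma). Clec14a, an endothelial lectin-like surface protein that binds Mmrn2, lay at 7.10, 7.30 and 7.65 in RSK2 and at 6.33 in the mean of the other groups. Its difference was 0.99 ± 0.25 (SE, adjusted p = 0.0213 by limma), and 5 of the other 70 arrays lay above its lowest RSK2 array.

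The transcription factors Sox18 and Erg rose by 0.82 and 0.81. In Erg the RSK2 arrays spread from 6.27 to 7.42, and 36 of the other 70 arrays lay above the lowest, so the groups overlapped. The second, dimmer probe set of Erg showed 0.27 in RSK2, as a plain difference of group means. The adhesion molecule Icam2 rose by 0.78, the matrix protein Mmrn2 by 0.76, the junction protein Esam by 0.71 and Ptprb, the phosphatase that acts on Tie2 and VE-cadherin, by 0.71. The other 5 that passed rose by 0.47 to 0.67: Kdr (the main VEGF receptor), Egfl7 (a secreted vessel factor), Sox17, Robo4 (a guidance receptor of endothelium) and Eng (a co-receptor for TGF-beta ligands).

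Some genes with as large a difference in RSK2 did not pass. Vwf, the clotting protein stored by endothelium, had a difference of 1.21 ± 0.37 (SE, adjusted p = 0.0569 by limma). Lyve1, a hyaluronan receptor of lymphatic vessels and of some macrophages, had 1.03 ± 0.53, and Cd34, a surface mucin also found on fibroblast-like cells, had 1.01 ± 0.37. Cdh5 itself had 0.57 ± 0.22 (adjusted p = 0.137 by limma), with RSK2 arrays from 7.28 to 7.90 inside the range of the other arrays (5.60 to 8.09).

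The count in RSK2 depends on which arrays enter the fit. Without RSK2 T3 replicate 1 it was 5 and without RSK2 T1 replicate 2 it was 9. Over all 76 arrays left out in turn it ran from 5 to 18. The shares of all genes called in the changed fits were not counted. Plvap, Ramp2, Clec14a, Sox18 and Eng passed whichever array was left out. The other array of its pair stayed in the fit, and no RSK2 pair was left out whole. Skeletal muscle genes also tended to be high in RSK2. The mean of a list of 15 muscle genes, centred on all arrays, ran from 0.69 to 3.72 in the RSK2 arrays. In the others it ran from -1.95 to 3.73. Over the 38 pair means it correlated with the mean of the 34 genes at 0.204. The median difference of those 15 genes was 2.72, with 0 of 15 called by limma, and 3 of the 15 were at or below the control level in some array. With the muscle mean as a covariate, 2 of the 34 genes passed, Plvap (0.83, adjusted p = 0.0193) and Ramp2 (0.80, adjusted p = 0.0263). The other 13 had differences from 0.40 to 1.00 and adjusted p from 0.0526 to 0.103 by limma. In 17 arrays of other groups with muscle means in the RSK2 range, the mean of the 34 genes ran from -0.97 to 0.70 with a median of -0.09, and 3 of the 17 lay above the lowest RSK2 array (0.34).

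**Figure D2:**
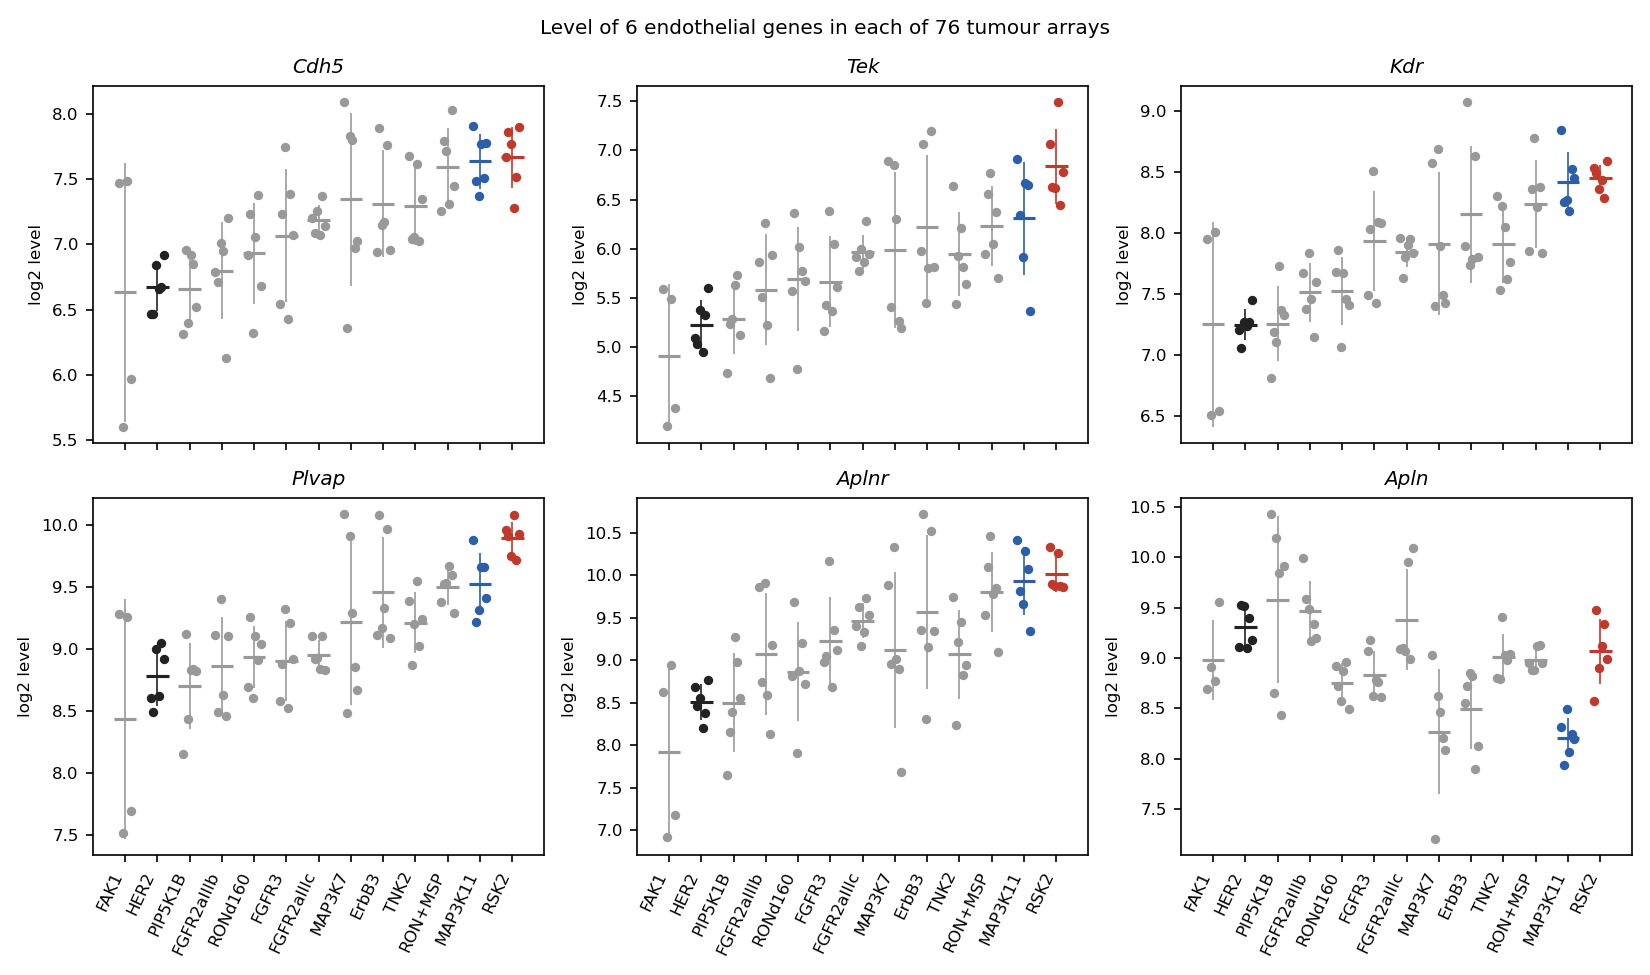
Log2 level of 6 endothelial genes in each of the 76 arrays, by introduced gene (groups in the order of the mean of the 34 genes); points are arrays, the horizontal bar is the group mean and the vertical bar 1 SD. RSK2 (red) is high in Tek and Plvap, HER2 (black) is low in Kdr, and MAP3K11 (blue) is high in Aplnr and low in Apln.

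MAP3K11 tumours, the group labelled with cachexia, had higher levels of many endothelial receptors. Against the mean of the other 12 groups, 12 of the 34 genes rose and 1 fell by limma, while 17.3% of all genes tested rose and 22.1% fell. The median difference was 0.46 over the 34 genes and -0.01 over all genes tested. All 3 VEGF receptors rose, as did Tie1 and Ptprb of the Tie system, the apelin receptor Aplnr, Ramp2 and Robo4. Of 9 junction and surface proteins 3 rose (Cdh5, Esam, Clec14a), and of 5 transcription factors 1 rose (Sox18).

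Kdr lay at 8.18, 8.36 and 8.84 (lowest, median and highest of 6 MAP3K11 arrays). The mean of the other groups was 7.77, and 17 of the other 70 arrays lay above the lowest MAP3K11 array. The difference was 0.65 ± 0.19 (SE, 3 pairs), with an adjusted p of 0.00503 by limma. Tie1, an orphan partner of Tie2, lay at 6.45, 6.73 and 6.90, and its difference was 0.70 ± 0.22 (SE, adjusted p = 0.00976 by limma).

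Flt1, a VEGF receptor that also acts as a decoy, rose by 0.58 and lay between 7.97 and 8.91. Its 4 probe sets did not agree: the plain differences of group means were 0.58, 1.06, 0.62 and 0.04. Flt4, the receptor for VEGF-C, rose by 0.54 in the probe set used and its dimmer probe set showed 0.08. Cdh5 rose by 0.54 ± 0.22 (adjusted p = 0.0453 by limma) in the probe set used, whereas its second, dimmer probe set showed -0.18. Without MAP3K11 T1 replicate 1 the count of the 34 genes called was 6 and without MAP3K11 T2 replicate 2 it was 8, and the call of Cdh5 was lost in both cases.

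Apelin (Apln) and its receptor (Aplnr) went opposite ways in MAP3K11. Apelin is a peptide made by sprouting endothelial tips and by other cells, and its receptor is found on endothelium. Aplnr lay at 9.34, 9.94 and 10.41 (lowest, median and highest) and rose by 0.84 ± 0.34 (SE, adjusted p = 0.042 by limma). Apln lay at 7.94, 8.23 and 8.49 and fell by 0.80 ± 0.23 (SE, adjusted p = 0.00349 by limma), a level of 0.57 times that of the other groups. In Apln 8 of the other 70 arrays lay below the highest MAP3K11 array. Apln was highest in PIP5K1B, at 9.58 ± 0.83 (SD, n = 6), where Aplnr was 8.50 ± 0.58.

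RSK2 and MAP3K11 shared 7 of the genes that rose, out of 15 and 12. How many of all genes tested rose in both comparisons was not counted, so the 7 have no share beside them. These comparisons share most of their arrays, so each is given by its own values. Set directly against each other, in a comparison chosen after the data were seen, RSK2 was higher than MAP3K11 in 2 of the 34 genes and lower in 0, while 11.3% of all genes tested were higher and 9.49% lower. Each count was below the share of all genes. The 2 genes were Cd34, at 10.61 ± 0.58 (SD, n = 6) in RSK2 and 8.99 ± 0.22 in MAP3K11, and Apln, at 9.06 ± 0.32 and 8.21 ± 0.19. The differences were 1.61 ± 0.50 (SE, adjusted p = 0.0138 by limma) and 0.84 ± 0.31 (adjusted p = 0.0408). Cdh5 differed by 0.03 ± 0.30 and Kdr by 0.02 ± 0.26, each less than its standard error. Skeletal muscle genes differed between the same groups, with a median of 4.37 over the 15 genes and 8 of 15 higher in RSK2 by limma. With the muscle mean as a covariate Cd34 stayed higher (1.66, adjusted p = 0.0206), Apln did not pass (0.80, adjusted p = 0.0826) and Flt4 was lower (-0.79, adjusted p = 0.0454 by limma). Pecam1 differed by 0.55 ± 0.32 (adjusted p = 0.225) and Icam2 by 0.63 ± 0.30 (adjusted p = 0.131).

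**Figure D3:**
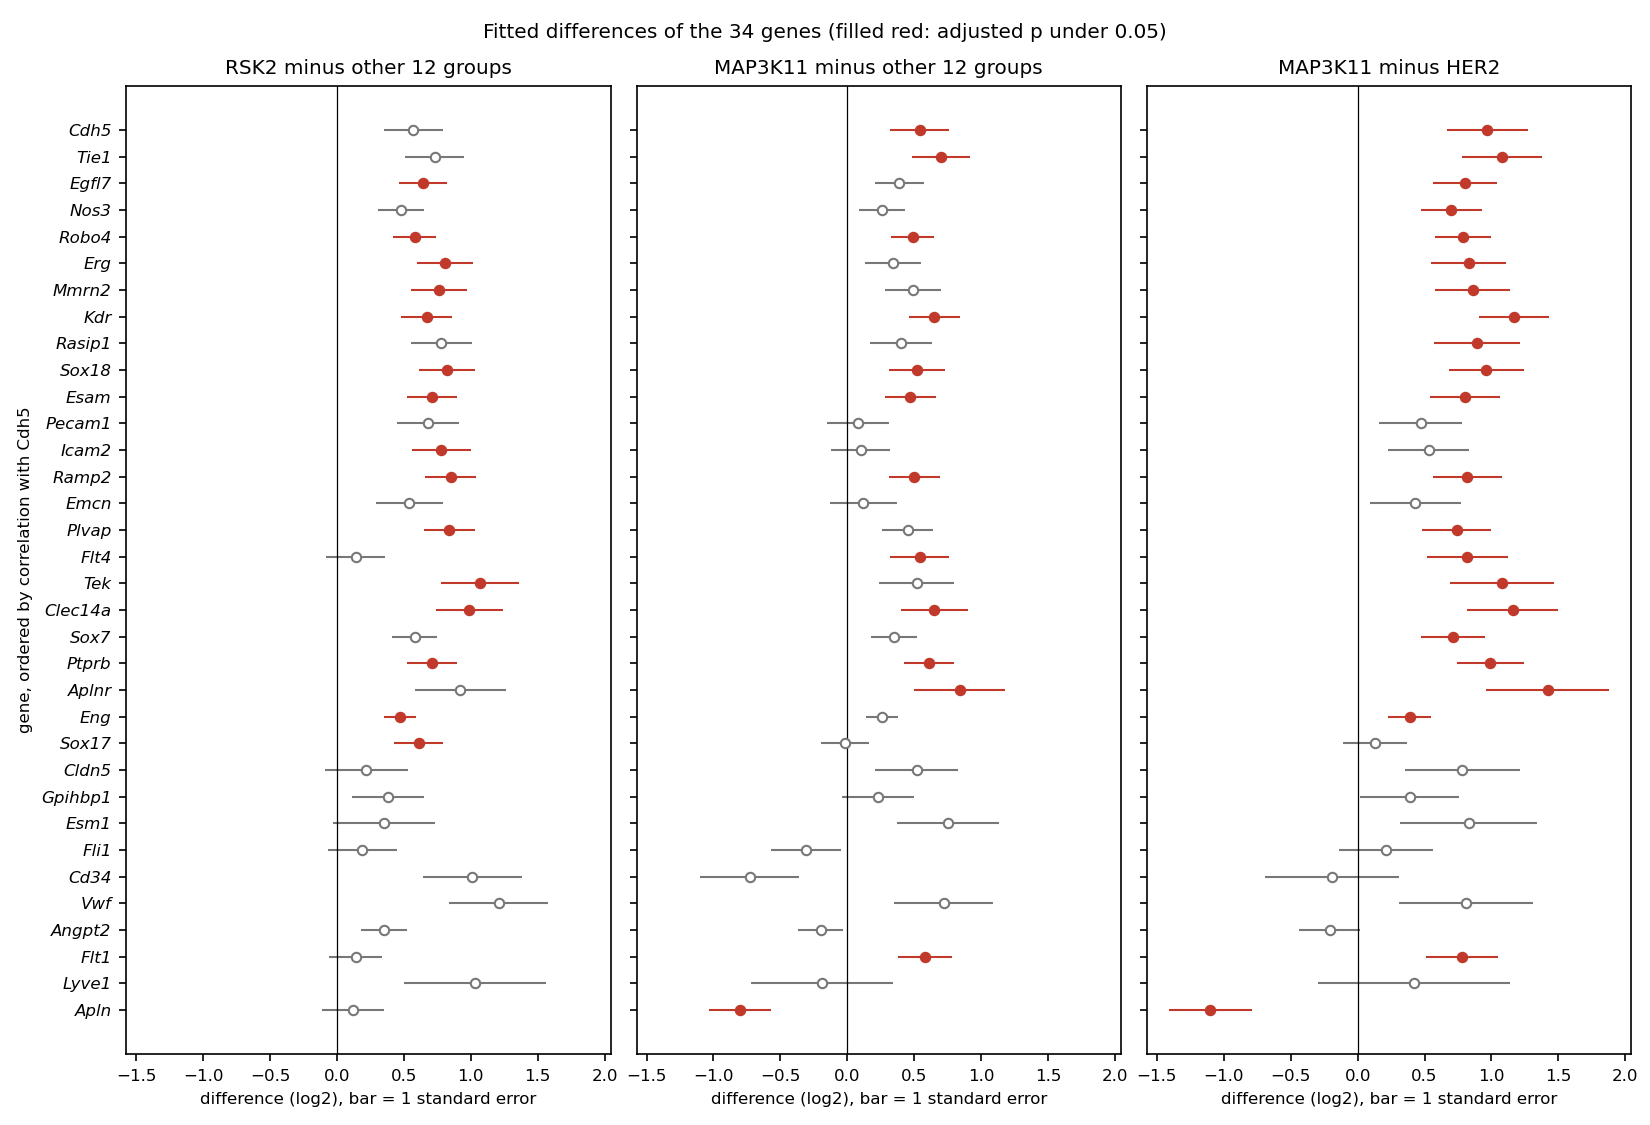
Fitted log2 differences of the 34 genes for RSK2 against the other 12 groups, MAP3K11 against the other 12 groups and MAP3K11 against HER2; points are estimates, bars 1 standard error, and filled red points have an adjusted p under 0.05 by limma. The counts of filled points are 15, 13 and 22, and Apln is the filled point below 0 in the panels for MAP3K11.

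HER2 tumours lay at the low end. Against the other 12 groups 1 of the 34 genes fell, Kdr, while 3.63% of all genes tested fell. That count was not above the share of all genes, so it does not set the 34 genes apart. Kdr lay at 7.06, 7.25 and 7.45 (lowest, median and highest of 6 arrays), with 14 of the other 70 arrays below the highest. The difference was -0.61 ± 0.19 (SE, adjusted p = 0.0332 by limma). The count of genes that fell was 2 with no T term, 2 with the mean of all probe sets, 3 with no filter, 4 without 2 MAP3K7 arrays (T1 replicate 2 and T3 replicate 1), 7 without the low FAK1 pair and 16 with no pair block. Nos3, the endothelial nitric oxide synthase, fell beside Kdr in each of these fits that kept the pair block. The shares of all genes that fell in these fits were not counted. The sign was negative in 32 of the 34 genes, with a median difference of -0.43 against 0.01 over all genes. Most of the 34 genes varied together, so their signs are not separate observations.

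MAP3K11 against HER2 gave the largest count of the comparisons made. Here 21 of the 34 genes were higher in MAP3K11 and 1, Apln, was lower, while 13.9% of all genes tested were higher and 19.4% lower. The median difference was 0.79 over the 34 genes and -0.03 over all genes. Aplnr had the largest difference, at 9.93 ± 0.40 (SD, n = 6) in MAP3K11 and 8.51 ± 0.21 in HER2, with no overlap between the arrays (9.34 to 10.41 against 8.20 to 8.77). Kdr differed by 1.17 ± 0.26 (SE, adjusted p = 0.00035 by limma), with arrays from 8.18 to 8.84 against 7.06 to 7.45. Clec14a differed by 1.16, Tek and Tie1 by 1.08 each, Ptprb by 0.99, Cdh5 by 0.97, Sox18 by 0.96 and Rasip1, a regulator of vessel lumen formation, by 0.89. Apln was lower by 1.10 ± 0.31 (SE, adjusted p = 0.00386 by limma), at 7.94 to 8.49 in MAP3K11 and 9.10 to 9.53 in HER2. The other 12 genes called in this comparison were higher by 0.39 to 0.86. Dimmer probe sets did not all follow, by plain differences of group means: Cdh5 showed -0.05, Erg -0.11, Flt4 0.09 and Sox7 0.1. Those of Aplnr, Eng and Clec14a showed 1.01, 0.67 and 0.58. Those of Egfl7 showed 0.51 to 0.74, of Mmrn2 0.42 to 0.87, of Flt1 0.18 to 1.42 and of Ptprb 0.19 and 1.1.

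MAP3K7 lay between these groups and varied widely between its pairs. Against the other 12 groups Angpt2, the angiopoietin released by activated endothelium, rose and Apln fell by limma, 1 gene each way, while 3.76% of all genes tested rose and 4.14% fell. Angpt2 lay at 6.83, 7.63 and 8.03 (lowest, median and highest of 6 arrays), and its difference was 0.55 ± 0.17 (SE, adjusted p = 0.0283). Its arrays were spread, and 39 of the other 70 lay above the lowest. Apln fell by 0.73 ± 0.23 (SE, adjusted p = 0.0332), and each of these calls was lost when any of 3 MAP3K7 arrays was left out.

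MAP3K11 and MAP3K7 differed in 1 of the 34 genes. Angpt2 was lower in MAP3K11, by 0.70 ± 0.23 (SE, adjusted p = 0.0193 by limma), while 12.8% of all genes tested were lower. The count of 1 was below that share. Angpt2 is described by its arrays. Its MAP3K11 arrays were close together (6.67 to 6.91) and the MAP3K7 arrays ranged from 6.83 to 8.03. Against HER2, MAP3K7 was higher in Erg, Sox18 and Clec14a, by 0.79, 0.85 and 0.96, and lower in Apln, by 1.04 ± 0.31 (SE, adjusted p = 0.0132 by limma). Over all genes tested 8.08% were higher and 10.2% lower in that comparison. The count that was higher was near the share of all genes and the count that was lower was below it. Without the MAP3K7 pair with the lowest endothelial mean (T1 replicate 2 and T3 replicate 1), 13 of the 34 genes were higher than in HER2 and 0 lower, and the call of Apln was lost by limma. Without the pair with the highest endothelial mean (T1 replicate 1 and T2 replicate 1), 0 were higher and Apln alone was lower (-1.3, adjusted p = 0.00431 by limma). Without the low MAP3K7 pair, 1 gene was higher and 1 lower in MAP3K11 than in MAP3K7, in place of 0 and 1. Without the high MAP3K7 pair 4 were higher and 0 lower in MAP3K11, so the call of Angpt2 was lost. It was also lost with the mean of all probe sets, where 0 genes differed between MAP3K11 and MAP3K7. Without the low FAK1 pair 7 genes differed between MAP3K7 and HER2, 6 of them higher in MAP3K7. For these fits without a pair the shares of all genes were not counted.

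RONd160 differed from the other groups in Cd34 alone, while 4.6% of all genes tested were lower there. The count of 1 was not above that share. Cd34 lay at 7.61, 8.69 and 8.86 in RONd160 (lowest, median and highest of 6 arrays), and 16 of the other 70 arrays lay below the highest. The difference was -1.27 ± 0.37 (SE, adjusted p = 0.0193 by limma), and without RONd160 T1 replicate 3 the adjusted p was 0.0504.

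In the other 8 groups limma called 0 of the 34 genes against the rest. The share of all genes tested that was called in either direction was 11.9% in ErbB3, 3.61% in PIP5K1B, 1.91% in FGFR2aIIIb, 0.808% in FAK1, 0.461% in RON+MSP, 0.0937% in TNK2, 0.0721% in FGFR2aIIIc and 0% in FGFR3. At an unadjusted p under 0.05 the counts among the 34 genes were 4, 17, 8, 19, 6, 1, 1 and 1 in the same order. At that threshold the shares of all genes tested were 25.8% in ErbB3, 18.8% in PIP5K1B, 14.7% in FGFR2aIIIb, 12.5% in FAK1, 12.4% in RON+MSP, 11.1% in TNK2, 6.61% in FGFR2aIIIc and 8.12% in FGFR3. The counts of 0 in PIP5K1B and FGFR2aIIIb depend on the processing and the arrays. With no filter, and without 2 MAP3K7 arrays (T1 replicate 2 and T3 replicate 1), Apln was higher and Kdr and Tie1 were lower in PIP5K1B, and with quantile normalization Kdr alone was lower. Without the low FAK1 pair 1 gene was higher and 4 lower in PIP5K1B, and Ramp2 was lower in FGFR2aIIIb. With no pair block 16 genes were lower in PIP5K1B and 13 in FAK1. The shares of all genes called in these changed fits were not counted. The median differences of the 34 genes were -0.49 in FAK1, -0.40 in PIP5K1B, -0.33 in FGFR2aIIIb and 0.30 in RON+MSP. In FAK1 the arrays split between pairs: Cdh5 was 7.47 and 7.49 in T1 replicate 1 and T2 replicate 1, and 5.60 and 5.97 in T1 replicate 2 and T3 replicate 1. T1 replicate 2 held the lowest value of all 76 arrays in 23 of the 34 genes, among them Lyve1 at 3.59 against a FAK1 median of 6.60.

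The genes varied together across tumours. Cdh5 was taken as the reference gene. Over the means of the 38 pairs, the median Pearson correlation of the other 33 genes with Cdh5 was 0.881, against -0.017 over all genes tested, and 24 of the 33 were among the 100 genes most like Cdh5. With group means taken out the medians were 0.869 and -0.002. These are descriptions over points that share a group and an array type. The highest were Tie1 at 0.966, Egfl7 at 0.962, Nos3 at 0.961, Robo4 at 0.954 and Erg at 0.953. Genes outside the list with the closest pattern were Pcdh12 (0.976), Plekhg1 (0.969), She (0.966), Fgd5 (0.958), Adgrf5 (0.942), Gimap6 (0.936), Rasgrp3 (0.929), Gimap4 (0.929), Tmem255a (0.917) and Gimap1 (0.914), over the same 38 pair means.

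A smaller set of the genes did not follow this block. Apln had -0.367 with Cdh5 over the pair means and -0.091 with group means taken out, though its receptor Aplnr followed it (0.845). Fli1 had 0.448, Cd34 0.447, Vwf 0.392, Angpt2 0.311, Flt1 0.304 and Lyve1 0.261. With group means taken out Flt1 was at -0.034, Vwf at 0.009 and Fli1 at 0.634. The Vwf arrays ranged from 4.07 to 7.39 and the Lyve1 arrays from 3.59 to 10.04. Platelets also hold Vwf, and 5 platelet genes had a mean that correlated with Cdh5 at 0.038. Macrophages can hold Lyve1, and the macrophage list correlated with Cdh5 at 0.385. These correlations are with Cdh5 and not with Vwf or Lyve1, so they do not bear on the levels of those genes. The part of these cells in the levels of Vwf and Lyve1 was not tested.

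**Figure D4:**
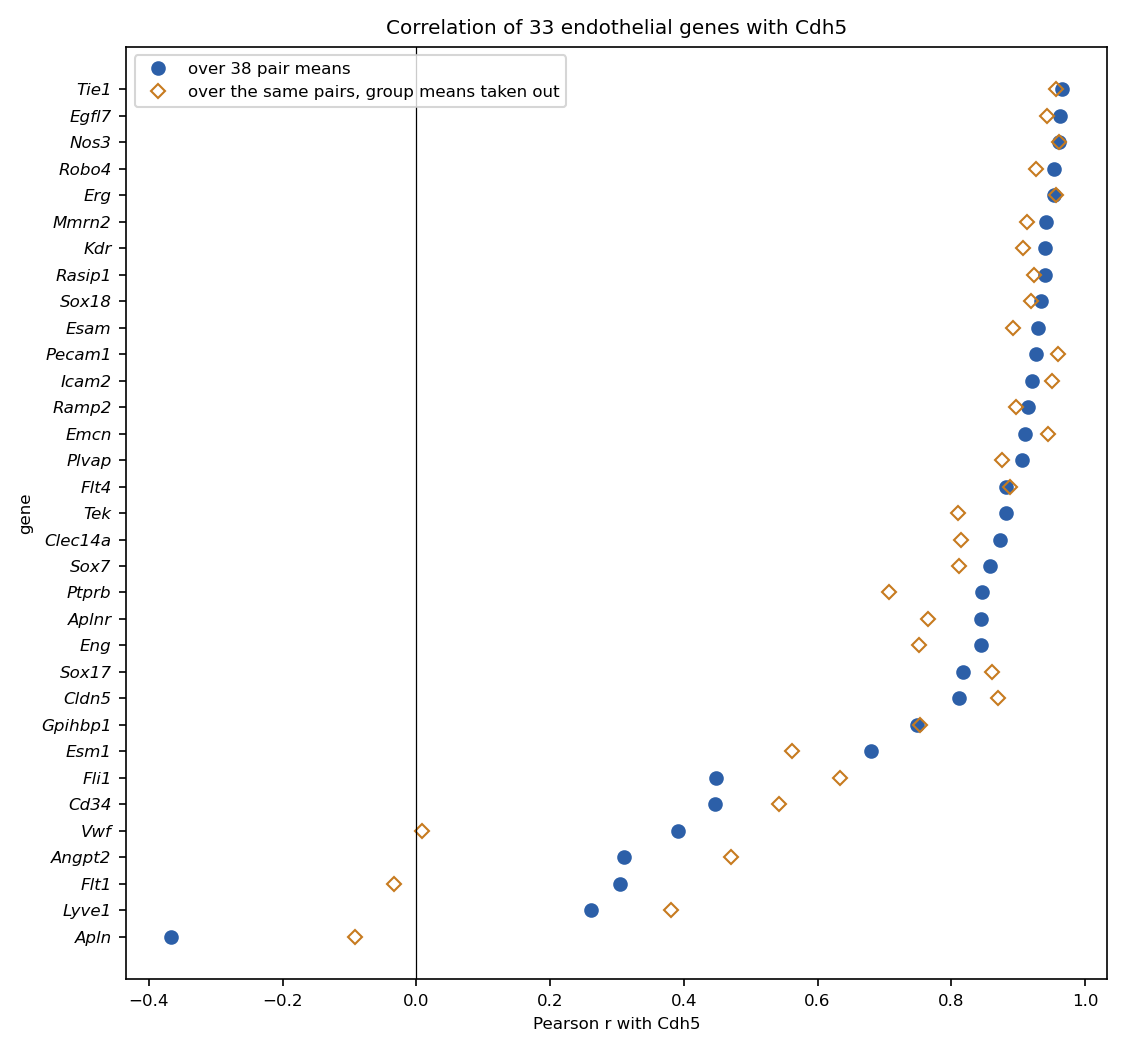
Pearson correlation of 33 endothelial genes with Cdh5 over 38 pair means (filled circles) and over the same pairs with group means taken out (open diamonds). Most genes lie near the median of 0.881, and Apln is the gene with a negative value over the pair means (-0.367). With group means taken out Apln is at -0.091 and Flt1 at -0.034.

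Other genes of vessel growth were counted from a list of 42 angiogenic signalling genes and regulators, 41 of which were tested. By limma's F test 33 of the 41 differed among the groups, against the 54% of all genes given above. In MAP3K11 8 of the 41 rose and 3 fell against the other groups, beside 17.3% and 22.1% of all genes tested. The count that rose was near the share of all genes and the count that fell was below it. These counts therefore do not set the list apart, and the genes named next are only some of those called. The Notch ligand Dll4 rose by 1.07 ± 0.19 (SE, adjusted p = 3.32e-06 by limma), the Notch ligand Jag1 by 1.42, the receptor Notch4 by 1.01, and the transcriptional repressors Hey1 and Heyl by 1.62 and 2.01. Epas1, a hypoxia factor, rose by 0.98. Nrp2, a co-receptor for VEGF-C and semaphorins, and Vegfb fell by 1.43 and 0.67. In RSK2 2 of the 41 rose, Vegfd by 1.35 and Notch4 by 0.78, and 0 fell, beside 1.49% of all genes tested that rose. Against HER2, MAP3K11 was higher in 9 of the 41 and lower in 5, beside 13.9% and 19.4% of all genes. HER2 against the other groups was higher in 3 and lower in 5, beside 5.91% and 3.63%.

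Markers of perivascular cells moved with the endothelial genes. The mean of 12 pericyte and smooth muscle genes correlated with Cdh5 at 0.823 over the 38 pair means, and that of 10 fibroblast genes at 0.809. Centred on all arrays, the pericyte mean was 0.58 to 0.84 in MAP3K11, 0.21 to 1.04 in RSK2 and -0.90 to -0.24 in HER2, with none of the 12 genes at or below the control level. In MAP3K11 7 of the 12 pericyte genes rose and 7 of the 10 fibroblast genes rose with 1 falling, by limma, beside 17.3% of all genes tested that rose. In RSK2 1 of the 12 and 1 of the 10 rose, beside 1.49%. Of 9 epithelial genes 4 rose in MAP3K11, where their mean was 0.41 to 0.91, and of 10 macrophage genes 4 fell, where their mean was -0.58 to -0.12, beside 22.1% of all genes that fell. The fibroblast mean was 0.36 to 0.80 in MAP3K11, 0.12 to 0.91 in RSK2 and -1.05 to -0.23 in HER2. Skeletal muscle correlated with Cdh5 at 0.133 and the epithelial list at -0.023. Muscle genes were low in MAP3K11 (-1.95 to -1.72). The part of these cells in the endothelial differences was not tested.

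**Figure D5:**
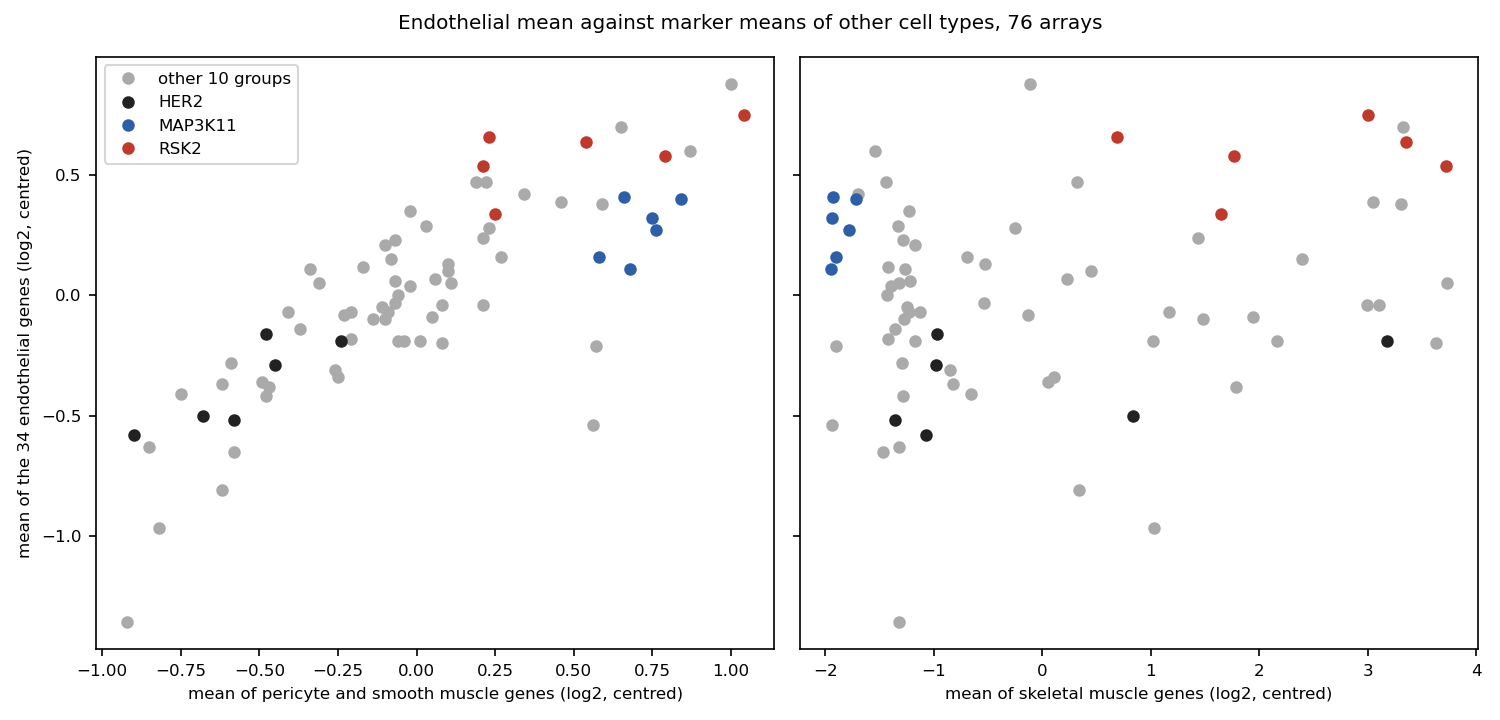
Mean of the 34 endothelial genes (vertical) against the mean of 12 pericyte and smooth muscle genes (left) and of 15 skeletal muscle genes (right) in 76 arrays, all log2 and centred on all arrays. The left panel rises from HER2 (black) to RSK2 (red) and MAP3K11 (blue), and in the right panel the RSK2 arrays lie at 0.69 and above while the MAP3K11 arrays lie at -1.72 and below.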

How the data were processed

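Expression in 76 tumours was measured on Affymetrix arrays of 45101 probe sets. The authors deposited log2 values, used as they stand. Per the submitters' processing notes the package affy was used, and the background correction and normalization are not given in the sources used here. Of the probe sets 34958 name 1 gene, 932 several and 9211 none in the platform table. The probe set with the highest mean stood for a gene, and genes were kept for testing where 4 or more arrays had them above percentile 40 of the array.

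The 34 genes, the gene lists and the tests were chosen with earlier results of these data known. Arrays were grouped by introduced gene. All arrays were fitted by limma (3.58.1, statmod 1.5.0, R 4.3.3) with the group and the T label, two-sided, with Benjamini-Hochberg adjustment over 13868 genes and a threshold of 0.05. Pairs of arrays within a group were found by the correlation of their 19 autosome medians over 13341 genes, none of them among the 34 (median 0.957 in pairs and 0.161 between other arrays of the group), and entered as a random block with an estimated correlation of 0.628. Data were simulated with a correlation of 0.6 within these same pairs, and RSK2 was compared with the other 12 groups. This fit recovered 92 of 100 genes changed by 1 log2 unit and 72 of 100 changed by 0.5, with 9 false calls. With no pair block there were 227 false calls. The pairing was built into the simulated data, so this cannot show that the pairs found here are real. Fitted differences can depart slightly from differences of means.

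Named genes are up to 10 called ones with the largest difference per comparison, with others given by range, and those nearest to Cdh5. RSK2 against MAP3K11 and genes singled out for missing the threshold were chosen after their values were seen. Alternatives changed 1 choice at a time, and leaving out the high MAP3K7 pair or the low FAK1 pair was chosen after seeing the data. The number of arrays limits the precision. All 76 columns of values were used, and no 2 arrays held the same values.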

Additional observations from a re-analysis of the deposited data

Results flagged for a closer look

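Each of the 34 genes was examined in each group for an array far from the rest of its group, judged by its gap to the nearest other array over the group's whole range. Of 442 such sets of 4 to 6 arrays 12 were marked, and chance alone marks about 1 in 20. RSK2 T2 replicate 2 was the lowest RSK2 array in Erg (6.27, the others from 7.03 to 7.42), in Sox18 (8.55, the others from 8.96) and in Icam2 (7.68, the others from 8.05). FGFR2aIIIb T3 replicate 1 was the lowest of its group in Tie1 (4.76, the others from 5.71) and in Robo4 (5.68, the others from 6.25), and FGFR2aIIIb T3 replicate 2 was the highest in Sox17 (6.25, the others up to 5.82). Low single arrays were also found for Flt1 in RONd160 (7.31), Erg in PIP5K1B (5.45) and Sox18 in RON+MSP (8.02). High single arrays were found for Angpt2 in FGFR3 (7.10) and in MAP3K11 (6.91), and for Gpihbp1, the capillary anchor of lipoprotein lipase, in PIP5K1B (9.44, the others up to 8.50).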

How the results depend on the processing

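The counts of the 34 genes called were 24 among the 13 groups, 32 summed over the 13 comparisons with the other groups, 13 for MAP3K11, 15 for RSK2, 22 for MAP3K11 against HER2, 1 for MAP3K11 against MAP3K7, 4 for MAP3K7 against HER2, 2 for RSK2 against MAP3K11 and 0 between T labels. The replicate block (title replicate numbers with the pair block) gave 24, 31, 12, 15, 21, 1, 4, 2 and 0. Arrays of different groups with the same T label and number had deviations from their group means that correlated at a median of -0.014. Other arrays of different groups had -0.001, so the numbers were not taken to pair arrays. Of 370 combinations with the same T label and number 99 correlated above 0.1, and a median cannot exclude a link shared by some groups only. With no pair block the sum was 109, and MAP3K11, RSK2, MAP3K11 against MAP3K7, MAP3K7 against HER2 and RSK2 against MAP3K11 gave 23, 26, 2, 20 and 4. At an adjusted p under 0.01 the sum was 6, and MAP3K11, RSK2, MAP3K11 against HER2, MAP3K11 against MAP3K7, MAP3K7 against HER2 and RSK2 against MAP3K11 gave 5, 1, 9, 0, 0 and 0. The mean of all probe sets gave 0 for MAP3K11 against MAP3K7 and 2 for MAP3K7 against HER2. The muscle covariate gave 2 for RSK2. Without 2 MAP3K7 arrays (T1 replicate 2, T3 replicate 1), MAP3K11 against MAP3K7 gave 2 and MAP3K7 against HER2 gave 13. Without the high MAP3K7 pair they gave 4, all higher in MAP3K11, and 1. Without the low FAK1 pair MAP3K7 against HER2 gave 7. Leaving out 1 array at a time, the counts ran from 23 to 26, 23 to 38, 6 to 16, 5 to 18, 21 to 22, 1 to 1, 2 to 10, 1 to 2 and 0 to 0 in the order above. For these changes the cause was not tested, and the share of all genes called in each changed fit was not counted. No direction reversed among the 61 single calls under any alternative, and 26 of the 61 lost the threshold when some single array was left out. Whole pairs were left out in MAP3K7 and FAK1 only, so the loss of an RSK2, MAP3K11 or HER2 pair was not tried.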
